A study of Homo sapiens with 18 samples.

Results

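Transcripts of 8 genes were followed across 3 human lung cancer cell lines: the EGFR-family ligands AREG, EREG, HBEGF, TGFA, BTC, EPGN and NRG1, and the KIT ligand KITLG. They were found by name among the 57500 genes of the expression table, and each name matched 1 row. Poly-A RNA was sequenced from SNU2535, NCI-H3122 and NCI-H2228, all labelled as non-small cell lung cancer with a wild-type genotype. NCI-H3122 and NCI-H2228 are known to carry EML4-ALK fusions. This does not mean that SNU2535 lacks such a fusion, which was not examined here. Each line was grown in serum-containing medium and received either DMSO, the solvent control, or 3 µM TRI-611 for 3 h, which gives 6 groups of 3 libraries. TRI-611 is, by the series title, a molecular glue degrader: such a compound brings its target, here the receptor kinase ALK, to the cell's protein disposal machinery. Nothing in the labels states that replicates are separate cultures. The p-values therefore reflect the spread between these libraries alone, and that spread may be technical.

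The EGFR-family ligands are made as membrane-anchored precursors, and proteases such as ADAM17 release the soluble growth factor, which then acts on the same cell or its neighbours. Amphiregulin (AREG), transforming growth factor alpha (TGFA) and epigen (EPGN) bind EGFR, while epiregulin (EREG), heparin-binding EGF-like growth factor (HBEGF) and betacellulin (BTC) bind EGFR and ERBB4. Neuregulin 1 (NRG1) binds ERBB3 and ERBB4, and ERBB2 has no ligand of its own but pairs with the other receptors. KITLG, also called stem cell factor, belongs to a different family and binds the receptor kinase KIT. In many epithelial cells the genes for several of these ligands are transcribed in response to the RAS-MAPK cascade that the receptors themselves switch on.

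Values are TPM (length-corrected transcript abundances), which sum to 1000000 in each library. Because TPM carries no read totals, sequencing depth is unknown and no counting interval could be given. Between 23766 and 25921 genes were above 0 in a library, and libraries of a group correlated at 0.991 to 0.993 across genes. In such bulk RNA, fewer cells that make a transcript and less transcript per cell cannot be told apart. ALK itself, whose protein is the stated target, was at 24.8 ± 2.11 TPM in DMSO and 21.3 ± 0.754 in TRI-611 in SNU2535 (SD, n = 3), and its transcript did not pass the test in any line (adjusted p = 0.0518, 0.282 and 0.868 in SNU2535, NCI-H3122 and NCI-H2228). The SNU2535 difference in ALK, -0.21 on the log2(TPM + 1) scale, did pass in the fit of all 18 libraries (adjusted p = 0.0109), without DMSO replicate 1 (0.0163) and without mitochondrially encoded genes (0.0413). A transcript level does not check the loss of a protein. The 9 listed lung epithelial markers summed to 10149 to 10622 TPM in DMSO and 9617 to 9972 in TRI-611 in SNU2535, to 8994 to 9310 and 7817 to 8309 in NCI-H3122, and to 3581 to 3698 and 3295 to 3355 in NCI-H2228, lower in TRI-611 with no overlap in any line. The keratins of the list had the highest TPM in each line and weigh most in these sums. Tested gene by gene, the markers split. SNU2535 had 3 lower and 4 higher of 9, with a median change of 0.08. NCI-H3122 had 3 lower and 2 higher of 7 tested (median -0.04), and NCI-H2228 had 2 lower and 1 higher of 9 (0.05). Among all genes tested, 28.7% passed in SNU2535 (median -0.02), 34.1% in NCI-H3122 (0.05) and 11.2% in NCI-H2228 (0.01). Among the markers KRT18 fell in each line (-0.30, -0.49 and -0.20) and NKX2-1, a lung lineage transcription factor, rose in each (0.31, 1.04 and 0.75). The KRT18 call in NCI-H2228 was lost in the absence of DMSO replicate 2 (adjusted p = 0.0557) and of replicates 2 and 3 of TRI-611, left out in turn (0.0587 and 0.0706). NAPSA was near 0 in NCI-H3122 (0.0848 TPM in DMSO) and CDH1 was at 5.65 TPM in NCI-H2228 in DMSO. Blood markers summed to at most 12.9 TPM and endothelial markers to at most 14.5 TPM, with HBB at 0 in every group. Fibroblast markers summed to 137 to 146 TPM in DMSO and 148 to 172 in TRI-611 in SNU2535, to 218 to 223 and 184 to 193 in NCI-H3122, and to 370.4 to 393 and 361 to 373 in NCI-H2228, overlapping only in the last. Each sum rests mainly on 1 gene. COL1A1 was at 135 TPM in SNU2535 DMSO and 380 in NCI-H2228 DMSO, and LUM at 208 in NCI-H3122 DMSO. Of the 6 fibroblast markers, 2 passed the filter in SNU2535, 2 in NCI-H3122 and 1 in NCI-H2228. The part of these marker lists in the results was not tested.

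AREG, EREG, BTC and EPGN lie together on chromosome 4 (GRCh38), in the order EPGN, EREG, AREG, BTC, within 486214 bases. AREG spans chr4:74445134-74455009 and EREG chr4:74365143-74388751, both on the plus strand. BTC spans chr4:74744759-74794686 on the minus strand. HBEGF is at chr5:140332843-140346631, TGFA at chr2:70447280-70554193 and KITLG at chr12:88492793-88580851, all on the minus strand. The 250 bases before the RefSeq start site (GRCh38.p14) were read for 7 of the 8 genes. The windows of AREG, EREG and HBEGF, which fell in every line, are shown beside that of BTC, the neighbour that did not pass the test in SNU2535 or NCI-H2228. They run 5′ to 3′ along the gene's strand, and capitals mark a cAMP response element (TGACGTCA) or a TATA box (TATAAA).
AREG, chr4:74444886-74445135, plus strand: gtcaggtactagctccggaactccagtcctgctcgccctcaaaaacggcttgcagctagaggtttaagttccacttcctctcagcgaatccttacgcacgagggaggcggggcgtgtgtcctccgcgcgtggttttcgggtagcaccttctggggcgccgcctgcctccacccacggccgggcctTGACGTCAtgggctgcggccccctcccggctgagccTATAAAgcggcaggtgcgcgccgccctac
EREG, chr4:74364895-74365144, plus strand: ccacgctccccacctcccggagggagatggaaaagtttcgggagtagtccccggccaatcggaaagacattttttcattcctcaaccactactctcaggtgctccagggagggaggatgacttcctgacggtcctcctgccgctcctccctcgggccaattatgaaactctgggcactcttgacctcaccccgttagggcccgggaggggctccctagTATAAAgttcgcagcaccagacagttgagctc
HBEGF, chr5:140346604-140346853, minus strand: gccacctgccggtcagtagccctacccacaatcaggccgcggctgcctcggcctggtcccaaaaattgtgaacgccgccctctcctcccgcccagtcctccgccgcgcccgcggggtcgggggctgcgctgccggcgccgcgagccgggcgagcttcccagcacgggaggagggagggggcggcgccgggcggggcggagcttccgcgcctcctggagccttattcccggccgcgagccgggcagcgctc
BTC, chr4:74794524-74794773, minus strand: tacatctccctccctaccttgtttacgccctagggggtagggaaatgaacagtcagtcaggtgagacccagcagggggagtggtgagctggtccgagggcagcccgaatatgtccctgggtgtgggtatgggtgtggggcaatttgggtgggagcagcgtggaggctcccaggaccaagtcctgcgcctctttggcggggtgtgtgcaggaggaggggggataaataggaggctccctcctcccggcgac

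Only the AREG window among the 7 genes held the full cAMP response element, 65 bases before the start site, a sequence present in 1.65% of the 35116 promoter windows in the RefSeq table. TATAAA was found in the windows of AREG, EREG, EPGN and KITLG and in 10.7% of all windows. The AP-1 sequence TGANTCA, present in 6.57% of windows, and the CArG box, present in 1.16%, were found in none of the 7 genes' windows. The ETS core GGAAG occurred in AREG, EREG, HBEGF, TGFA and KITLG, and in 65.1% of all windows. Both strands were searched in windows of the same length, and TGFA has 2 start sites in the table. These matches describe letters in a window and not bound sites.

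In SNU2535, TRI-611 lowered AREG, HBEGF, EREG and TGFA, and KITLG to a lesser extent, while BTC and NRG1 did not pass the test. AREG kept 14.1% of its DMSO level, HBEGF 15.7%, EREG 19.9%, TGFA 35.8% and KITLG 61.7%. Of the 7 genes that passed the filter of 1 TPM in at least 3 libraries, 5 were lower and 0 higher at an adjusted p under 0.05 (limma), where 28.7% of 16252 genes were called in either direction and 18.1% fell. Groups without overlap were seen for 5 of the 7, against 43.9% of all genes tested. BTC and NRG1 had unadjusted p of 0.775 and 0.163. The median change of the 7 was -1.46 on the log2(TPM + 1) scale, and that of all genes tested was -0.02.

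Amphiregulin was at 296, 306 and 290.2 TPM in the SNU2535 DMSO libraries and at 43.4, 41.9 and 40.6 in the TRI-611 libraries. Every treated library lay far below every control library. The change of AREG was -2.80 on the log2(TPM + 1) scale (SE 0.0379, adjusted p = 3.228e-08), the sixth largest fall in this line. HBEGF, whose precursor is also the diphtheria toxin receptor, went from 51.6, 48.5 and 51.4 TPM to 8.83, 8.18 and 6.83. Its change was -2.53 (SE 0.0844, adjusted p = 1.895e-06). EREG started much lower, at 16.4, 18.2 and 18.0 TPM, and stood at 2.96, 3.76 and 3.72 after treatment. Its groups were again fully separate, with a change of -2.05 (SE 0.0926, adjusted p = 6.85e-06).

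TGFA, the ligand first found in the medium of transformed cells, was at 89.9, 86.6 and 88.9 TPM in SNU2535 DMSO and at 32.7, 33.5 and 28.8 in TRI-611. That is a change of -1.46 (SE 0.0589, adjusted p = 4.216e-06). KITLG was the most abundant of the 8 transcripts in this line, at 368, 348 and 376 TPM, and stood at 226, 229 and 218 after treatment. It still exceeded every other member in the treated libraries. The KITLG change was -0.69 (SE 0.0384, adjusted p = 1.873e-05). BTC was at 31.8 ± 2.00 TPM in DMSO and 31.4 ± 2.09 in TRI-611 (SD, n = 3), with overlapping libraries and a difference of -0.02 with a 95% interval from -0.17 to 0.13. NRG1 was at 27.8 ± 0.465 and 29.2 ± 0.924 TPM, a difference of 0.07 (adjusted p = 0.304) that passed the test after median-ratio scaling (adjusted p = 0.0461) or quantile normalization (adjusted p = 0.0301).

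**Figure D1:**
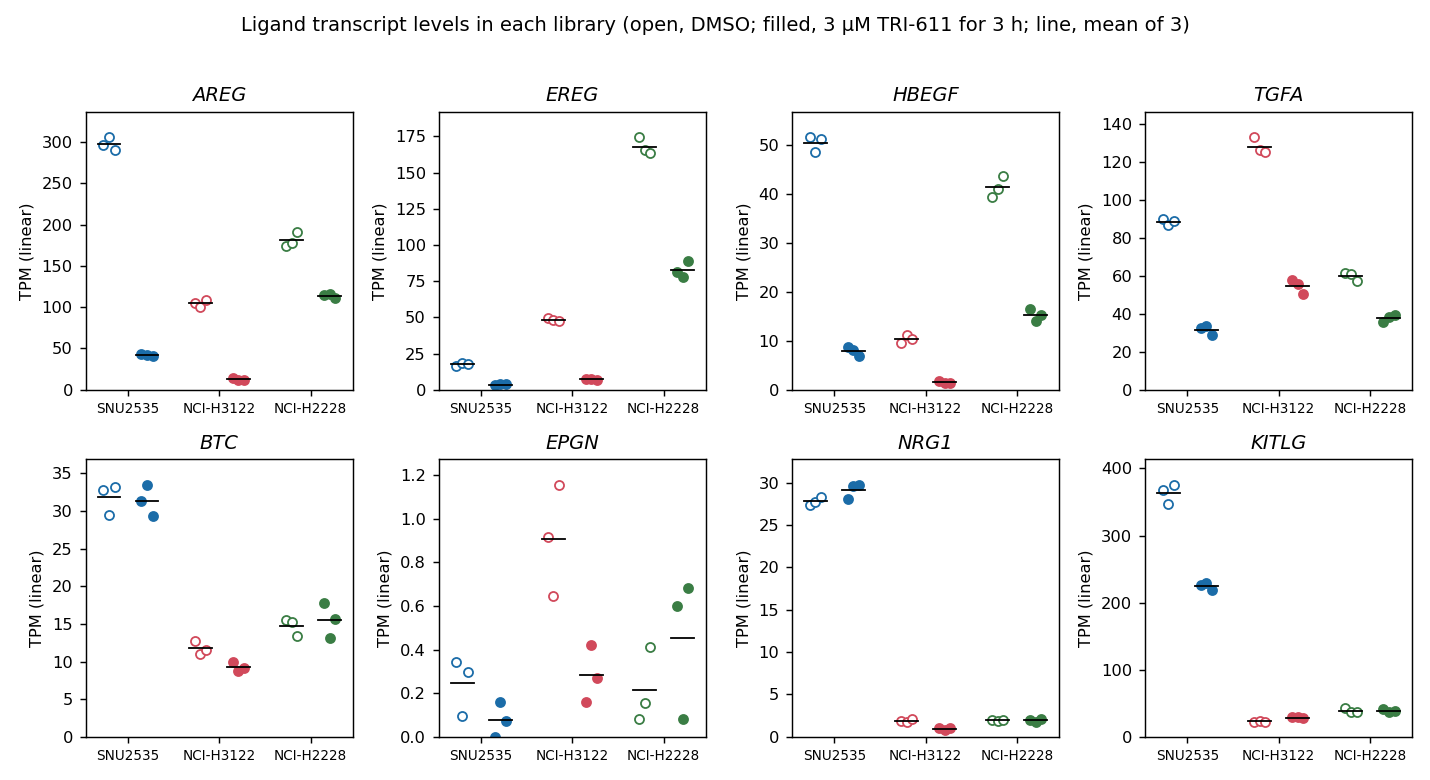
TPM (linear axis, one scale per panel) of the 8 ligand transcripts in each of the 18 libraries, with open circles for DMSO, filled circles for TRI-611 and a line at the mean of 3. AREG, EREG, HBEGF and TGFA lie lower after TRI-611 in all 3 lines without overlap, and KITLG lies lower in SNU2535, higher in NCI-H3122 and overlaps in NCI-H2228.

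The same 4 EGFR ligands fell in NCI-H3122, BTC and NRG1 fell by smaller amounts, and KITLG rose. AREG kept 12.0% of its DMSO level, EREG 14.7%, HBEGF 14.7% and TGFA 42.6%. Of the 7 genes tested, 6 were lower and 1 was higher, where 34.1% of 15311 genes were called in either direction, 13.4% lower and 20.6% higher. NRG1, among the 6, passed the filter through its DMSO libraries, which favours a fall. The groups did not overlap for any of the 7, against 48.1% of all genes. The median change was -1.22 for the members and 0.05 for all genes tested.

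AREG went from 105, 100.4 and 109 TPM in NCI-H3122 DMSO to 13.8, 11.8 and 12.0 in TRI-611, a change of -2.97 (SE 0.0652, adjusted p = 2.448e-07). EREG, a ligand that activates EGFR weakly but for long, went from 49.5, 47.9 and 47.5 TPM to 7.18, 7.62 and 6.49. Its change of -2.61 (SE 0.0624, adjusted p = 3.448e-07) was the ninth largest fall in this line. HBEGF was low in this line, at 9.48, 11.1 and 10.3 TPM, and stood at 1.79, 1.37 and 1.40 after treatment. Its change was -2.17 (SE 0.104, adjusted p = 8.033e-06) and read -1.23 with a pseudocount of 5, since the scale compresses low values. TGFA, the most abundant member here, was at 133, 126 and 125 TPM in DMSO and 57.6, 55.7 and 50.4 in TRI-611, a change of -1.22 (SE 0.0551, adjusted p = 5.973e-06).

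The remaining members moved less in NCI-H3122. BTC was at 12.7, 11.1 and 11.5 TPM in DMSO and 9.91, 8.77 and 9.12 in TRI-611, a change of -0.31 (SE 0.0749, adjusted p = 0.0149). Without DMSO replicate 1 the BTC change missed the threshold (adjusted p = 0.0511). NRG1, the main ligand of ERBB3, was near the detection filter, at 1.84, 1.74 and 2.16 TPM in DMSO and 0.993, 0.786 and 1.02 in TRI-611. NRG1 passed the filter through its DMSO libraries, so the filter favours a fall. Its change of -0.59 (SE 0.144, adjusted p = 0.0156) missed the threshold without DMSO replicate 3 (adjusted p = 0.0579) and ran from -0.97 to -0.22 with pseudocounts of 0.1 and 5. KITLG rose from 22.8, 23.2 and 22.8 TPM to 28.9, 29.04 and 27.7, with every treated library above every control. The rise was 0.30 (SE 0.0431, adjusted p = 0.0013). The antisense gene AC024941.2, at 0.298 to 5.01 TPM, shares exonic sequence with KITLG, and with no strand setting stated the reads of this pair cannot be told apart.

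In NCI-H2228 the 4 EGFR ligands fell by less, and HBEGF moved most. HBEGF kept 36.9% of its DMSO level, EREG 49.2%, AREG 63.0% and TGFA 62.9%. Of the 7 genes tested, 4 were lower and 0 higher, where 11.2% of 16806 genes were called and 6.4% fell. These 4 were also the members whose groups did not overlap, against 31.4% of all genes. The 3 others had unadjusted p from 0.561 to 0.949. The median change was -0.66 for the members and 0.01 for all genes.

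HBEGF went from 39.5, 41.1 and 43.8 TPM in NCI-H2228 DMSO to 16.5, 14.1 and 15.2 in TRI-611. The change was -1.38 (SE 0.0671, adjusted p = 1.636e-05). EREG was at its highest level of the 3 lines here, at 174, 166 and 164 TPM, and stood at 81.1, 78.0 and 88.7 after treatment. Its change of -1.02 (SE 0.0525, adjusted p = 1.963e-05) still left more EREG than any group of the other lines had. AREG went from 174, 177 and 192 TPM to 115, 115 and 112, a change of -0.66 (SE 0.0433, adjusted p = 6.186e-05). TGFA went from 61.4, 61.2 and 57.2 TPM to 35.6, 38.2 and 39.3, a change of -0.66 (SE 0.0519, adjusted p = 0.0002). The 3 other tested members had overlapping groups and differences whose 95% intervals ran from -0.18 to 0.31 for BTC, from -0.30 to 0.32 for NRG1 and from -0.15 to 0.16 for KITLG. KITLG was at 38.9 ± 3.06 TPM in DMSO and 39.0 ± 2.26 in TRI-611 (SD, n = 3).

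EPGN, the least studied ligand of the family, did not reach the filter in any line. Its levels were 0.342, 0.0973 and 0.296 TPM in SNU2535 DMSO against 0, 0.159 and 0.0724 in TRI-611. In NCI-H3122 they were 0.917, 0.645 and 1.16 against 0.161, 0.423 and 0.269, with no overlap. In NCI-H2228 the DMSO libraries held 0.081, 0.154 and 0.412 TPM and the TRI-611 libraries 0.600, 0.0795 and 0.682, which overlap.

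**Figure D2:**
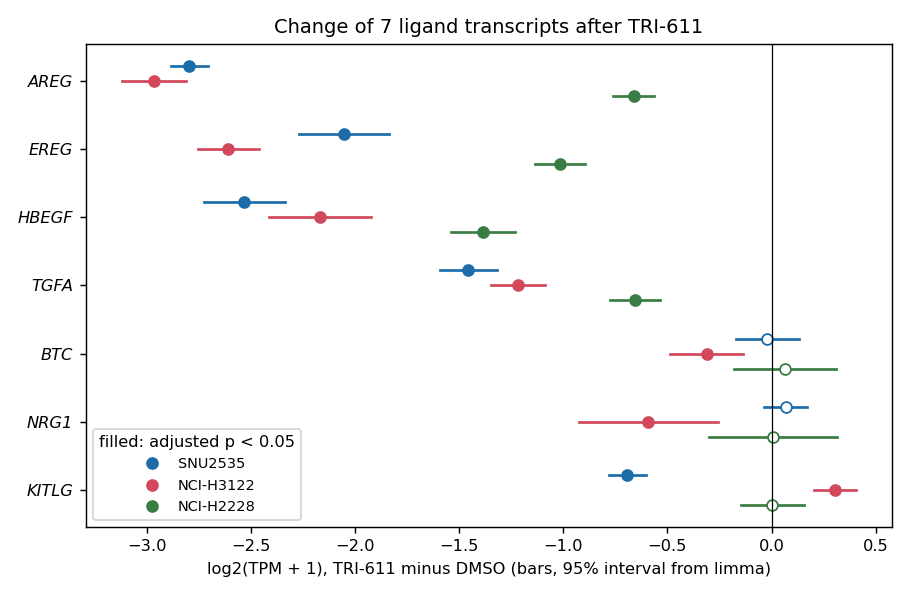
Change on the log2(TPM + 1) scale (TRI-611 minus DMSO) of the 7 tested ligands in each line, with 95% intervals from limma and filled points for an adjusted p under 0.05. AREG lies near -2.80 and -2.97 in SNU2535 and NCI-H3122 and at -0.66 in NCI-H2228, while BTC and NRG1 cross 0 in SNU2535 and NCI-H2228.

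Whether the lines responded by different amounts was tested directly with interaction contrasts over the 12 libraries of each pair. Against NCI-H2228, the falls of AREG, EREG, HBEGF and TGFA were larger in SNU2535 and in NCI-H3122. AREG differed most, by -2.13 between SNU2535 and NCI-H2228 (SE 0.0578, adjusted p = 5.162e-10) and by -2.30 between NCI-H3122 and NCI-H2228 (SE 0.0802, adjusted p = 3.919e-09). Of the 7 tested members, 5 differed between SNU2535 and NCI-H2228, all lower, where 10.6% of genes did (7.83% lower, 2.74% higher). Between NCI-H3122 and NCI-H2228 it was 5, with 4 lower and 1 higher, where 14.3% of genes differed (5.34% lower, 8.99% higher). Between SNU2535 and NCI-H3122 it was 3, with 1 lower and 2 higher, against 20.1% of genes (16.4% lower, 3.71% higher).

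KITLG responded differently in each pair of lines. The difference was -0.998 between SNU2535 and NCI-H3122 (SE 0.0529, adjusted p = 2.528e-07) and -0.70 between SNU2535 and NCI-H2228 (SE 0.0791, adjusted p = 0.0001). The smaller difference of 0.30 between NCI-H3122 and NCI-H2228 (adjusted p = 0.0255) missed the threshold in 8 alternatives, with adjusted p from 0.051 to 0.0989, among them without NCI-H3122 DMSO replicate 3, NCI-H3122 TRI-611 replicate 2, NCI-H2228 DMSO replicate 1 and NCI-H2228 TRI-611 replicates 2 and 3. EREG fell by more in NCI-H3122 than in SNU2535, a difference of 0.56 (SE 0.112, adjusted p = 0.004). For NRG1 the difference between SNU2535 and NCI-H3122 was 0.66 (SE 0.103, adjusted p = 0.0008). It ran from 0.28 to 1.04 over 22 alternatives and passed in each. NRG1 passed the filter in NCI-H3122 through its DMSO libraries, which favours a fall there. Between NCI-H3122 and NCI-H2228 the NRG1 difference was -0.60 and just missed the threshold (adjusted p = 0.052), but passed in 6 of 22 alternatives.

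AREG, HBEGF, TGFA and BTC did not differ in response between SNU2535 and NCI-H3122 at the threshold. The AREG difference was 0.17 with a 95% interval from 0.0009 to 0.34 (adjusted p = 0.148), and that of HBEGF was -0.36 with an interval from -0.65 to -0.08 (adjusted p = 0.0716). The HBEGF value depends on the pseudocount, at 0.03 with 0.1 and -0.87 with 5, where it passed the test. Its difference between NCI-H3122 and NCI-H2228, -0.78 (adjusted p = 0.0007), was -0.04 with a pseudocount of 5 and then missed the threshold (adjusted p = 0.825). With the batch as a block, the TGFA difference of -0.24 between SNU2535 and NCI-H3122 passed the test (adjusted p = 0.0369, without the block 0.0642), and so did the BTC difference of -0.38 between NCI-H3122 and NCI-H2228 (adjusted p = 0.0437, without the block 0.0903). AREG and BTC also passed between SNU2535 and NCI-H3122 without NCI-H3122 TRI-611 replicate 1, which brings the count there to 5.

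The makeup of the ligand pool shifted along with its size. The 7 EGFR-family transcripts summed to 514 ± 3.18 TPM in SNU2535 DMSO and 146 ± 5.90 in TRI-611 (SD, n = 3), which is 28.4% of the control. The sums were 306 ± 6.70 and 86.3 ± 5.36 TPM in NCI-H3122, or 28.2%, and 467 ± 4.80 and 268 ± 6.32 TPM in NCI-H2228, or 57.3%. AREG made up 57.9% of the sum in SNU2535 DMSO and 28.8% in TRI-611, while the BTC share went from 6.19% to 21.5% and that of NRG1 from 5.41% to 20.1%, although neither transcript passed the test. In NCI-H3122, AREG went from 34.2% to 14.6% of the sum and TGFA from 41.8% to 63.3%. In NCI-H2228 the AREG share was 38.8% in DMSO and 42.6% in TRI-611, and the EREG share 35.9% and 30.9%. The share of mitochondrially encoded transcripts, which enters every TPM, was 8.70% in DMSO and 9.13% in TRI-611 for SNU2535. It was 11.2% and 12.5% for NCI-H3122, and 9.07% and 10.8% for NCI-H2228.

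**Figure D3:**
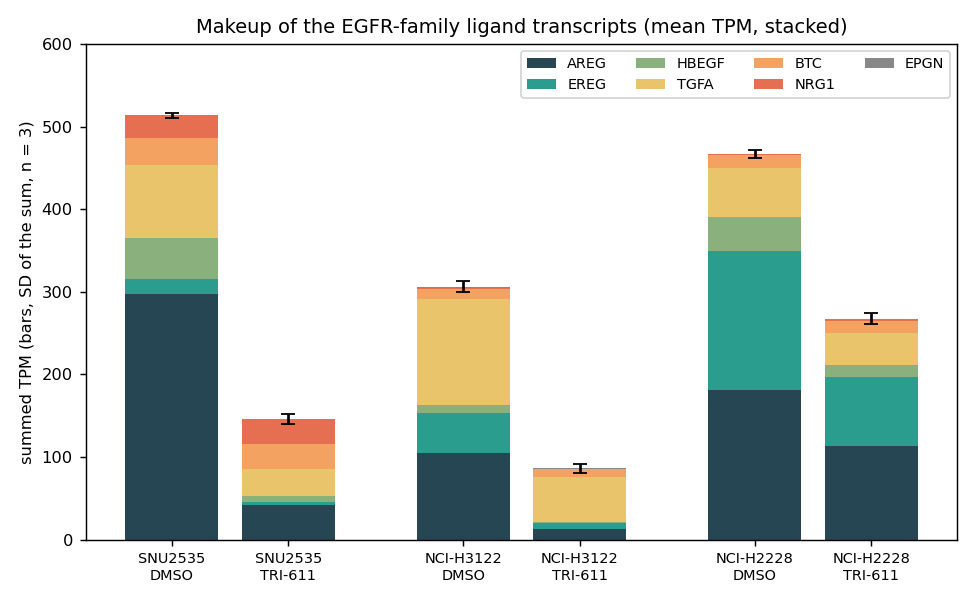
Mean TPM of the 7 EGFR-family ligands stacked by gene in each group, on a linear axis from 0, with the SD of the sum over 3 libraries. The stack after TRI-611 is 28.4% of its DMSO height in SNU2535, 28.2% in NCI-H3122 and 57.3% in NCI-H2228.

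The lines also differed in which ligands they expressed before treatment. In SNU2535 DMSO the order by TPM was KITLG, AREG, TGFA, HBEGF, BTC, NRG1, EREG and EPGN, with no overlap between neighbours. In NCI-H3122 TGFA led, followed by AREG, EREG, KITLG, BTC, HBEGF, NRG1 and EPGN, and the libraries of BTC and HBEGF overlapped. In NCI-H2228 AREG and EREG led with overlapping libraries, then came TGFA, HBEGF and KITLG (the latter pair overlapping), BTC, NRG1 and EPGN.

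KITLG and NRG1 were higher in SNU2535 than in either other line. KITLG was 15.9-fold higher in SNU2535 than in NCI-H3122 in DMSO (log2 difference 3.93, SE 0.0539, adjusted p = 9.855e-12) and 9.35-fold higher than in NCI-H2228. NRG1 was 14.5-fold and 14.3-fold higher, at 27.8 TPM against 1.91 and 1.94. EREG ran the other way, 9.57-fold higher in NCI-H2228 than in SNU2535 (log2 difference -3.19 for SNU2535 minus NCI-H2228, SE 0.0455, adjusted p = 2.339e-11). HBEGF was 4.89-fold higher in SNU2535 than in NCI-H3122. TGFA was 2.14-fold higher in NCI-H3122 than in NCI-H2228.

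SNU2535 against NCI-H3122 called 7 of 7 members, 2 lower and 5 higher, where 76.1% of genes were called, 30.7% lower and 45.4% higher. SNU2535 against NCI-H2228 called 7 of 7, 1 lower and 6 higher, where 75% were called, 42.6% lower and 32.4% higher. NCI-H3122 against NCI-H2228 called 6 of 7, 5 lower and 1 higher, where 79.3% were called, 49.3% lower and 30% higher. The totals are close to the background. Groups that did not overlap numbered 7, 7 and 6, against 78.3%, 76.4% and 80.7% of genes. The median of all genes was 0.16, -0.11 and -0.25 in these comparisons, and median-ratio scaling moved it to 0.01, -0.03 and -0.01. BTC (-0.30, adjusted p = 0.0045) and NRG1 (-0.02, adjusted p = 0.848) in NCI-H3122 minus NCI-H2228 are smaller than or close to that shift. After median-ratio scaling BTC was at -0.02 (adjusted p = 0.798) and NRG1 at 0.18 (adjusted p = 0.03), and after quantile normalization they were at 0.09 and 0.44.

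The receptors for these ligands moved in both directions. ERBB3, the receptor of NRG1 that relies on a partner's kinase, rose in all 3 lines, from 60.2 ± 1.07 to 110.5 ± 2.70 TPM in SNU2535, from 38.6 ± 1.35 to 75.5 ± 3.05 in NCI-H3122 and from 9.92 ± 0.348 to 12.8 ± 1.33 in NCI-H2228 (SD, n = 3). The changes were 0.87, 0.95 and 0.34 on the log2(TPM + 1) scale (adjusted p = 4.381e-06, 8.366e-06 and 0.0327). The NCI-H2228 call of ERBB3 was lost when any of the 3 DMSO libraries, or else TRI-611 library 1 or 2, was left out (adjusted p = 0.0622, 0.102, 0.0715, 0.1 and 0.0598). ERBB2 rose by 0.37 in SNU2535 and 0.58 in NCI-H3122, and the NCI-H2228 difference was 0.15 (adjusted p = 0.0655). EGFR, the main receptor of the ligands that fell, fell by 0.29 in SNU2535 and by 0.56 in NCI-H3122, and its difference in NCI-H2228 was -0.17 (adjusted p = 0.0585). ERBB4 reached at most 0.0825 TPM and KIT at most 0.25 TPM in any library, so neither was tested. Of the 3 receptors tested, SNU2535 and NCI-H3122 each had 1 lower and 2 higher, and NCI-H2228 had 1 higher. Over all genes tested, 18.1% were lower and 10.7% higher in SNU2535. These shares were 13.4% and 20.6% for NCI-H3122, and 6.4% and 4.8% for NCI-H2228. A list of 3 genes is too short to weigh against such shares.

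Genes listed as receptor inhibitors or receptor turnover factors also split. ERRFI1, which encodes an inhibitor of the EGFR kinase, fell from 452 ± 9.15 to 155 ± 9.17 TPM in SNU2535, from 440.5 ± 4.04 to 144 ± 4.18 in NCI-H3122 and from 449.9 ± 18.1 to 348 ± 25.8 in NCI-H2228. The changes were -1.54, -1.61 and -0.37. LRIG3, a transmembrane relative of the receptor inhibitor LRIG1, rose by 0.63, 0.85 and 0.69, and LRIG1 rose by 0.43 in SNU2535 and 0.71 in NCI-H3122. SOCS4 fell in each line, by 0.51, 0.21 and 0.29. SH2B3, an adaptor that restrains cytokine receptors, fell by 0.43 in NCI-H3122 and 0.54 in NCI-H2228. The ubiquitin ligase gene CBLB rose by 0.49 in NCI-H3122 and 0.40 in NCI-H2228, and the latter call was lost when any of the 3 DMSO libraries, or else TRI-611 library 1 or 3, was left out (adjusted p = 0.0573, 0.084, 0.0534, 0.0967 and 0.0675). Of 11 listed genes, SNU2535 had 4 lower and 2 higher, NCI-H3122 had 3 of each and NCI-H2228 had 3 lower and 2 higher, with medians of -0.11, 0.01 and -0.04. Beside these stand 28.7%, 34.1% and 11.2% of all genes tested, called in either direction.

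**Figure D4:**
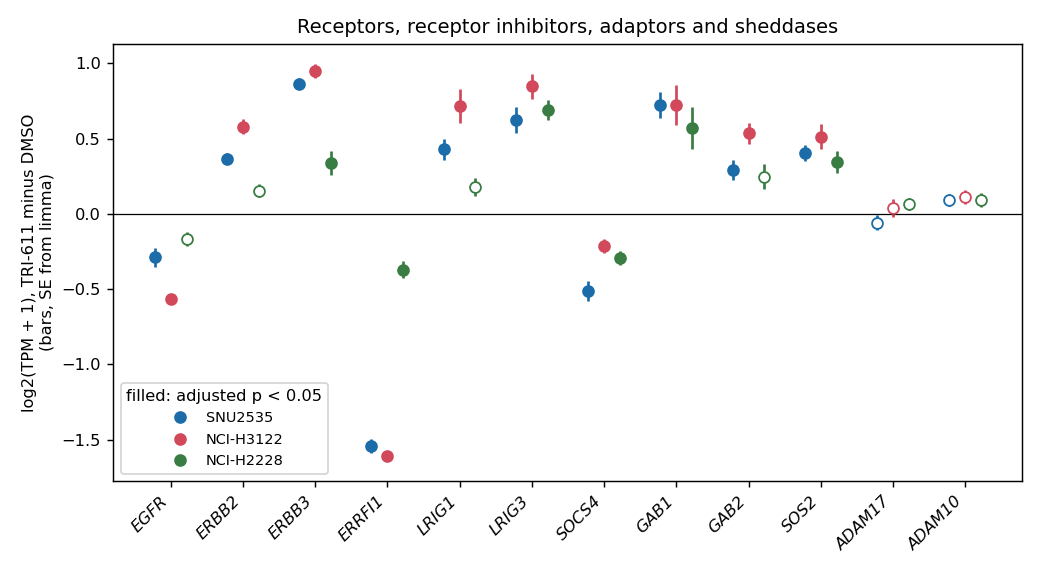
Change on the log2(TPM + 1) scale with SE from limma for 3 receptors, 4 genes listed as receptor inhibitors or turnover factors, 3 adaptors and 2 sheddases in each line. Points are filled where the adjusted p is under 0.05. ERRFI1 lies at -1.54, -1.61 and -0.37 and ERBB3 at 0.87, 0.95 and 0.34, while ADAM17 and ADAM10 are unfilled and near 0.

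Proteases that release the ligands showed small differences. ADAM17, the main sheddase of AREG, EREG, HBEGF and TGFA, was at 51.2 ± 2.46 and 49.1 ± 1.80 TPM in DMSO and TRI-611 of SNU2535 (SD, n = 3). NCI-H3122 had 34.2 ± 1.27 and 35.2 ± 2.33, NCI-H2228 had 55.5 ± 1.26 and 58.1 ± 0.668, and ADAM17 passed the test in no line. FRMD8, a binding partner of the iRhom proteins that carry ADAM17 to the surface, fell by 0.30 in SNU2535 and by 0.36 in NCI-H3122. The SNU2535 call of FRMD8 was lost without the filter on low values (adjusted p = 0.0549) and without DMSO replicate 2 (0.055), DMSO replicate 3 (0.0575) or TRI-611 replicate 1 (0.051). The rises of ADAM9 in SNU2535 (0.13) and of RHBDL2 in NCI-H3122 (0.34), and the fall of RHBDF2 in NCI-H3122 (-0.17), missed the threshold with the batch as a block (adjusted p = 0.0502, 0.0634 and 0.0923). Leaving out a library also ended these calls: library 3 of DMSO or 2 of TRI-611 for ADAM9, library 2 or 3 of DMSO or 2 of TRI-611 for RHBDL2, and any library of DMSO or 2 or 3 of TRI-611 for RHBDF2, with adjusted p of up to 0.0617, 0.1 and 0.0854. In NCI-H2228 ADAM9 rose by 0.16, and TIMP3, an inhibitor of ADAM17, changed by -0.15 (adjusted p = 0.0408). That ADAM9 call was lost on leaving out library 1 or 2 of DMSO, or 1 or 3 of TRI-611 (adjusted p of up to 0.0942), and that of TIMP3 without any 1 of the 6 libraries (up to 0.121). Of 8 genes, SNU2535 and NCI-H2228 each had 1 lower and 1 higher, and NCI-H3122 had 2 lower and 1 higher. All genes tested were called at 28.7% in SNU2535, 34.1% in NCI-H3122 and 11.2% in NCI-H2228. The counts in SNU2535 and NCI-H3122 are near that background.

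Among 7 adaptors that link the receptors to RAS, GAB1 rose by 0.72 in SNU2535, 0.72 in NCI-H3122 and 0.57 in NCI-H2228. The last of these missed the threshold with the block (adjusted p = 0.0574) and without DMSO replicate 1 or 2 or any 1 TRI-611 library (up to 0.116). In NCI-H3122 GAB1 passed the filter through its TRI-611 libraries (2.15 to 2.46 TPM, against 0.843 to 1.11 in DMSO). The filter there favours a rise. SOS2, a RAS exchange factor, rose by 0.40, 0.51 and 0.34, and GAB2 by 0.29 in SNU2535 and 0.54 in NCI-H3122. The NCI-H2228 call of SOS2 was lost on leaving out library 2 of DMSO, or 1 or 3 of TRI-611 (adjusted p = 0.0746, 0.0708 and 0.0689). The SNU2535 call of GAB2 was lost without DMSO replicate 3 (0.0524) or TRI-611 replicate 3 (0.0542). SNU2535 had 1 lower and 3 higher genes in this list, NCI-H3122 had 1 lower and 4 higher, and NCI-H2228 had 2 higher. The share of all genes called higher was 10.7%, 20.6% and 4.8%, and lower 18.1%, 13.4% and 6.4%.

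Other ligands of the ERBB family gave little signal. EGF was at 13.2 ± 0.281 and 15.0 ± 1.40 TPM in SNU2535 and at 17.9 ± 1.16 and 19.7 ± 1.08 in NCI-H2228, passing the test in neither, and NCI-H3122 held at most 0.453 TPM. NRG2 was tested in NCI-H2228 alone, at 3.11 ± 0.313 and 2.53 ± 0.393 TPM, and did not pass. Among 22 listed ligands of other receptor kinases, SNU2535 had 3 lower and 2 higher of 11 tested, NCI-H3122 had 5 lower and 3 higher of 12, and NCI-H2228 had 3 lower of 12. Genes called over all tested were 28.7%, 34.1% and 11.2%. VEGFA, the angiogenic growth factor, fell in each line, by 1.20, 1.75 and 0.94. FGF9 rose by 0.66 in SNU2535 and by 0.60 in NCI-H3122, where the call was lost with the block (adjusted p = 0.0729) and without DMSO replicate 2 (0.087) or DMSO replicate 3 (0.0587). In NCI-H3122 FGF9 passed the filter through its TRI-611 libraries alone (1.07 to 1.42 TPM). Its DMSO libraries there were at 0.322 to 0.660 TPM, so the filter favours a rise. CSF1 fell by 0.34 in SNU2535, PDGFB fell by 0.78 and FGF19 by 0.92 in NCI-H3122, and FGF2 fell by 0.28 and CSF1 by 0.25 in NCI-H2228. FGF19 in NCI-H3122 passed the filter through its DMSO libraries alone, at 1.02 to 1.36 TPM. Its TRI-611 libraries were at 0.120 to 0.133 TPM, so the filter favours a fall.

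Responses differed among neighbouring genes on chromosome 4. EREG and AREG, 56382 bases apart, fell in every line, whereas BTC, 289749 bases beyond AREG on the opposite strand, passed the test in NCI-H3122 alone. MTHFD2L, a mitochondrial folate enzyme gene on the other side of EPGN, passed in none (differences of -0.22, -0.13 and -0.19). Of the chemokine genes further along, CXCL8 fell by 2.27, 1.60 and 1.09, CXCL2 fell by 1.04 in SNU2535 and 0.96 in NCI-H2228, and CXCL1 fell by 0.68 in NCI-H2228. CXCL8 in NCI-H3122 passed the filter through its DMSO libraries alone (3.54 to 4.20 TPM, against 0.514 to 0.644 in TRI-611). The filter there favours a fall. RCHY1, which encodes a ubiquitin ligase, fell by 0.63 in SNU2535, 0.43 in NCI-H3122 and 0.37 in NCI-H2228. The last of these calls was lost without DMSO replicate 1 (adjusted p = 0.0661), DMSO replicate 2 (0.0724) or TRI-611 replicate 2 (0.0557). PARM1 fell by 0.32 in NCI-H3122. Of 10 listed neighbours, 3 of 7 tested were lower in SNU2535, 3 of 5 in NCI-H3122 and 4 of 10 in NCI-H2228. Over all genes tested, 18.1%, 13.4% and 6.4% were lower. The median change of the neighbours was -0.47, -0.32 and -0.30, beside -0.02, 0.05 and 0.01 for all genes. The NCI-H3122 count and median of the neighbours include CXCL8, whose fall the filter favours. Whether this stretch differs from other stretches of the genome was not tested.

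**Figure D5:**
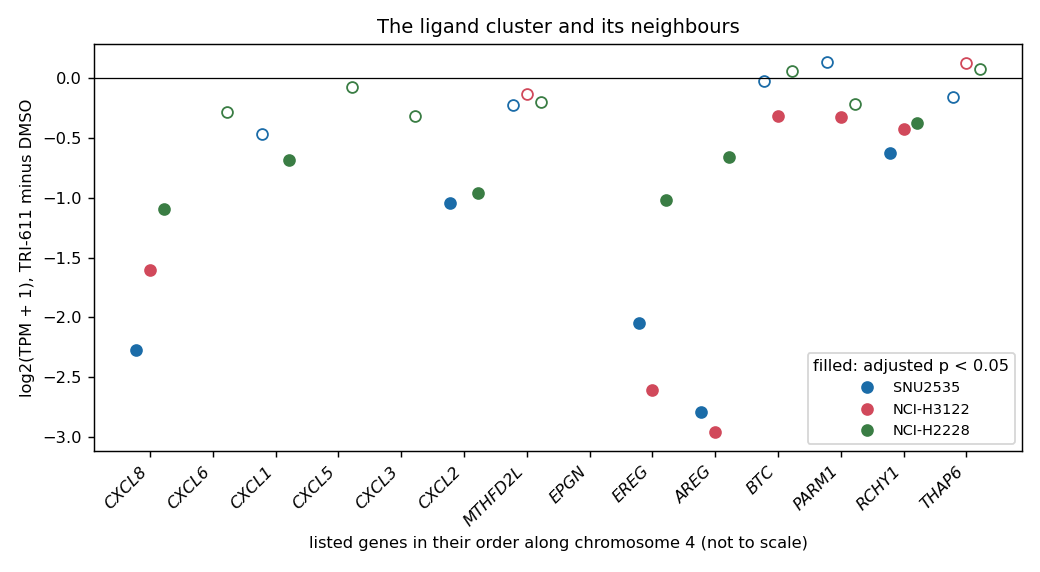
Change on the log2(TPM + 1) scale of the ligand cluster and listed neighbours in their order along chromosome 4 (order only, not to scale), filled where the adjusted p is under 0.05. EREG, AREG and CXCL8 lie below 0 in all 3 lines, and MTHFD2L is unfilled in each. BTC lies near 0 in SNU2535 and NCI-H2228 and at -0.31, filled, in NCI-H3122. Genes below the filter have no point.

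Genes whose pattern was most like each ligand were found by Pearson correlation over the 18 libraries, after the DMSO mean of each line was subtracted, among 19938 genes. The libraries share treatments and lines, so r is a description. AREG was most like ERRFI1 (r = 0.996), the chromatin protein gene HMGA2 (0.996) and FOSL1 (0.993), an AP-1 subunit. EREG was most like the lipid transporter gene MFSD2A (0.996), FOXA2 (0.993) and PLAU (0.99). HBEGF was most like the receptor kinase gene EPHA2 (0.995), DUSP4 (0.993), a phosphatase of MAP kinases, and PHC2 (0.99). TGFA was most like SPRED1 (0.994), an inhibitor of RAS signalling, FHL2 (0.992) and PHC2 (0.992). BTC had weaker best matches, SREK1IP1 (0.891), F2RL1 (0.87) and ATP5PDP4 (0.867). NRG1 was most like ADAM19 (0.969), NKX1-2 (0.966) and HAS2 (0.966), which were lower in NCI-H3122 by 1.07, 1.30 and 2.16 on the log2 scale. KITLG was most like FAM43A (0.974), LHX6 (0.971) and ETV6 (0.965). FAM43A differed by -0.93 in SNU2535, 0.53 in NCI-H3122 and 0.04 in NCI-H2228, beside -0.69, 0.30 and 0.00 for KITLG.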

How the data were processed

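Poly-A RNA libraries, built with a kit that adds molecular identifiers per the labels' protocols, came from 3 lines with 3 DMSO and 3 TRI-611 libraries each. The authors deposited 1 table of TPM values for 57500 genes, 485 of them without a name. Tools listed in the submitters' processing notes are STAR 2.5.2b, fastp 0.23.1, Subread 1.5.2 with featureCounts, and DESeq2, on build GRCh38. Annotation, strand setting, use of the identifiers and how TPM was derived: not given in the sources used here.

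Values were taken as log2(TPM + 1), which understates changes of low genes. A gene entered a fit when 3 or more of its libraries reached 1 TPM. The two-sided test was limma 3.58.1 under R 4.3.3, using trend and robust empirical Bayes, with Benjamini-Hochberg adjustment over all genes of the fit and a threshold of 0.05. DMSO levels were compared over 9 libraries and responses between lines over 12, among genes passing in both. The fits were tested on simulated data. Positions came from GENCODE release 29, promoters from RefSeq, GRCh38.p14. The rule named the 8 members, ALK, up to 3 called genes with the largest change per pathway list and line, and the 3 genes most like each member called in any line. ERRFI1 and RCHY1 in NCI-H2228, LRIG1 in SNU2535, FGF9, SH2B3 and CBLB in NCI-H3122, SOCS4 in NCI-H3122 and NCI-H2228, NKX2-1 and KRT18, and the receptors, EGF, NRG2, ADAM17 and MTHFD2L where they passed no test, are given beside them outside it. The members and lists were chosen with earlier results of these data known. Alternatives covered the pseudocount, filter, scaling, fit and left-out libraries. The labels' batch equals the replicate number and pairs samples across groups. Deviations of same-numbered samples correlated at -0.0865 to 0.101 across genes.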

Additional observations from a re-analysis of the deposited data

Results flagged for a closer look

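Each value here is a difference between 2 lines in the response of a ligand to TRI-611, on the log2(TPM + 1) scale, that passed a limma interaction test. SNU2535 minus NCI-H3122 gave 0.556 for EREG, 0.6598 for NRG1 and -0.9978 for KITLG, which fell in SNU2535 and rose in NCI-H3122. NRG1 passed the filter in NCI-H3122 through its DMSO libraries, which favours a fall there. SNU2535 minus NCI-H2228 gave -2.1344 for AREG, -1.0358 for EREG, -1.1476 for HBEGF, -0.8019 for TGFA and -0.6978 for KITLG. NCI-H3122 minus NCI-H2228 gave -2.3035 for AREG, -1.5918 for EREG, -0.7847 for HBEGF, -0.5621 for TGFA and 0.2999 for KITLG. The pairs share libraries and are not independent of each other. The share of mitochondrially encoded transcripts was 8.70% to 9.13% in SNU2535, 11.2% to 12.5% in NCI-H3122 and 9.07% to 10.8% in NCI-H2228 (group means). Without mitochondrially encoded genes, each of these differences kept its direction and its side of the threshold. Between NCI-H3122 and NCI-H2228, the HBEGF difference missed the threshold in 1 of 22 alternatives (a pseudocount of 5) and that of KITLG in 8.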

How the results depend on the processing

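The calls of AREG, EREG, HBEGF and TGFA in each line, and of KITLG in SNU2535 and NCI-H3122, kept their direction and side of the threshold in all 16 alternatives. Over all comparisons, 1138 of 1197 alternative values of members did so. The replicate block changed 7 of 131 calls (5 lost, 2 gained), given in the report, and no direction. Genes of the pathway lists called in NCI-H2228 numbered 17, 10 without a filter and 11 to 15 when a library was left out (11 without DMSO replicate 1, DMSO replicate 2 or TRI-611 replicate 1). Members differing in response between SNU2535 and NCI-H3122 numbered 3, 5 after median-ratio scaling and 3 to 5 when a library was left out. Calls over all genes in NCI-H2228 went from 1882 to 1052 without a filter and 1177 with plain empirical Bayes. Scaling moved the split of calls: SNU2535 had 2941 lower and 1731 higher genes, and 2333 and 2507 after median-ratio scaling; NCI-H3122 had 2054 and 3160, then 3148 and 2396. These values changed sign. Under median-ratio scaling, BTC in SNU2535 was 0.0375, NRG1 in NCI-H2228 -0.0021, KITLG there -0.0112, and NRG1 in NCI-H3122 minus NCI-H2228 DMSO 0.1798. Under quantile normalization, BTC in SNU2535 was 0.0517, NRG1 in NCI-H2228 -0.0404, BTC and NRG1 in that DMSO pair 0.09 and 0.436, and the BTC response difference of SNU2535 minus NCI-H2228 0.0096. Without mitochondrially encoded genes, ALK in NCI-H2228 was 0.0047 and NRG1 in that DMSO pair 0.0065. For SNU2535 minus NCI-H3122, the HBEGF response difference was 0.0304 with a pseudocount of 0.1 and that of AREG -0.0421 with 5. Leaving out a library gave -0.0709 to 0.0268 for BTC in SNU2535, -0.0324 to 0.1731 for BTC, -0.0313 to 0.0599 for NRG1 and -0.0412 to 0.0673 for KITLG in NCI-H2228, -0.0755 to 0.0269 for NRG1 in the DMSO pair, and -0.1925 to 0.013 for the BTC response difference of SNU2535 minus NCI-H2228. The causes of these changes were not tested.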

Other observations

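The 3′ untranslated regions of the ligands, read from GENCODE release 29 from a transcript annotated as principal for each gene, differed in their content of the pentamer ATTTA, which is known from AU-rich elements of short-lived transcripts. AREG held 4 in 272 bases, or 14.7 per 1000 bases, a density above that of 99.5% of 19818 genes, whose median was 1.29. EREG held 20 in 3946 bases (5.07 per 1000), HBEGF 5 in 1459 (3.43) and TGFA 13 in 3582 (3.63). BTC, which passed the test in NCI-H3122 alone, held 12 in 1921 bases (6.25 per 1000), a higher density than EREG, HBEGF or TGFA. KITLG held 21 in 4429 (4.74), and EPGN held 0 in 673. The transcript read for NRG1 is annotated with only 8 bases of this region, too few to describe its content. The decay of these transcripts was not measured.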
